A study of Mus musculus with 9 samples.

Results

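Genes of smooth muscle, connective tissue matrix and blood vessel were examined in the colonic mucosa of mice with and without p16 epimutation. The set held 40 listed genes of the 54146 in the table, matched by symbol to a list of known genes: 15 smooth muscle genes, 22 matrix and fibroblast genes and 3 endothelial genes. RNA from 5 ApcMin/+ mice and 4 ApcMin/+; p16cis/cis mice, all at 15 wk of age and of the C57BL/6J strain, was sequenced, each mouse giving 1 library. Both genotypes carry the Min mutation in one germline copy of Apc, the tumor suppressor of the Wnt pathway, and the latter group, called p16cis/cis mice here, also carries on both alleles a knocked-in element that draws DNA methylation to the promoter of p16. The ApcMin/+ mice were 2 females (mice 1 and 5) and 3 males, and the p16cis/cis mice were 3 females and 1 male (mouse 1). The labels name the tissue as colonic mucosa, and the methods name colonic crypts as the source of the RNA.

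The colon wall is built of an epithelial lining over a lamina propria of fibroblasts, vessels and immune cells, with a thin muscularis mucosae below it and the thick muscle coats outside. Smooth muscle cells contract through actin and a smooth muscle myosin, and their contractile genes are driven by serum response factor at a short DNA motif named the CArG box. Fibroblasts secrete the collagens and proteoglycans of the matrix, and endothelial cells line the vessels and are recognised by junction proteins and by the receptor for vascular endothelial growth factor.

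The libraries held 13523500 to 17885918 reads on genes. The ApcMin/+ libraries were deeper (15745098 to 17885918 reads) than those of p16cis/cis mice (13523500 to 14900228), with no overlap. The share of reads on mitochondrially encoded genes was 8.74% to 15.6% in ApcMin/+ mice and 19.3% to 29.8% in p16cis/cis mice, again with no overlap, so neither depth nor mitochondrial share can be told apart from genotype. Cdkn2a, the gene that encodes p16, was listed at 0 in all 9 mice, which checks no label. Levels below are normalized counts, that is, gene counts divided by the size factor of the mouse. Where a genotype had no read of a gene, the bound below sets its mean at the level of 3 reads over the group, 1.11 normalized counts in p16cis/cis mice. These bounds and the intervals below cover counting error only.

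The 40 genes were a trace beside the epithelium. Per kb of exon, their mean level over the 9 mice ran from 0.226 to 1157 normalized counts with a median of 4.99, against 1218 to 59350 for 15 epithelial markers with a median of 7107. Tpm1, a tropomyosin that also forms part of the cytoskeleton of cells outside muscle, was the highest at 1157 per kb, and Smtn (97.2) and Mylk (92.0) came next. Then came Pdgfrb at 48.4, Vim at 43.4, Flna at 40.3 and Thy1 at 26.1 per kb. The median was 9.22 per kb over the smooth muscle genes, 4.47 over the matrix genes and 1.53 over the 3 endothelial genes. Without correction for length, 2 of the 40 genes (Tpm1 and Mylk) had a mean of at least 1000 normalized counts, 6 were between 100 and 1000, 21 between 10 and 100, and 11 under 10.

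**Figure D1:**
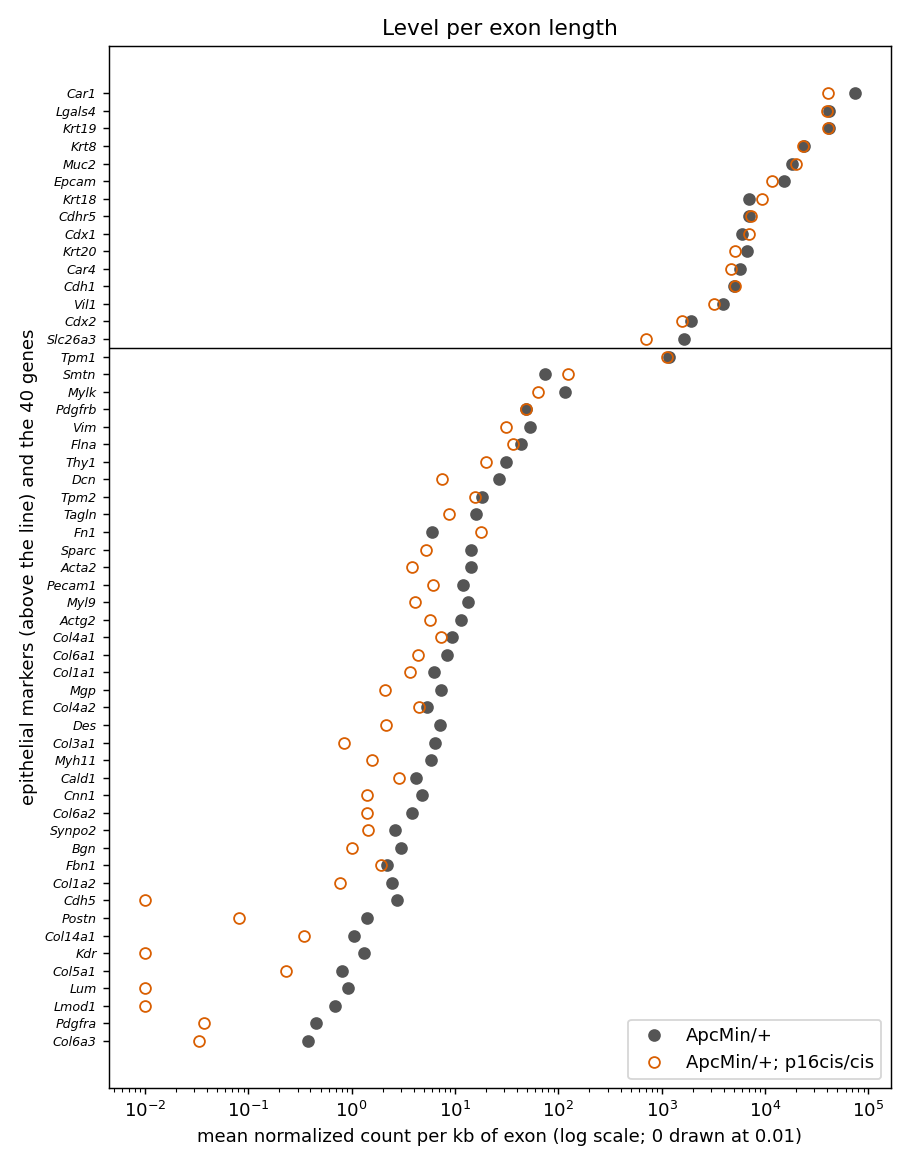
Mean level per kb of exon (log scale, normalized counts per kb) of 15 epithelial markers and the 40 genes in ApcMin/+ (filled) and p16cis/cis mice (open), with 0 drawn at 0.01. The members lie below the epithelial markers, apart from Tpm1 at 1157, which is near the lowest marker in ApcMin/+ mice and above it in p16cis/cis mice (1134 against 705 for Slc26a3), and 4 members have no read in p16cis/cis mice.

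Together the 40 genes took 0.0438% to 0.0671% of the reads of a mouse. Without Tpm1 the share was 0.0148% to 0.0227% in ApcMin/+ mice and 0.0116% to 0.0138% in p16cis/cis mice, a share that the mitochondrial reads enter. Of the reads that were not mitochondrial it was 0.0167% to 0.0265% and 0.0155% to 0.0197%, and the summed normalized counts were 2963 to 4139 and 2486 to 2986. On both of these scales the genotypes overlapped, at ApcMin/+ mouse 4. The mean was lower in p16cis/cis mice for 38 of the 40 genes and higher for 2, Smtn and Fn1. In bulk RNA, fewer cells of a type and less RNA per cell cannot be told apart.

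The genotypes were compared gene by gene by limma, which took log2(normalized count + 1) of the 14410 genes that reached 10 normalized counts in at least 4 mice, and p-values were adjusted over all of them (Benjamini-Hochberg), a gene being called at an adjusted p under 0.05. Of all genes tested, 16.9% were called, 8.14% as higher and 8.75% as lower in p16cis/cis mice. The filter kept 28 of the 40 genes, of which 5 were called: Smtn and Fn1 rose, and Mylk, Col3a1 and Sparc fell. This share is close to that of all genes. Its log2 fold change was negative for 26 of the 28, with a median of -0.69, while the median over all genes tested was -0.0041. By kind, the median was -0.73 over 12 smooth muscle genes, with 1 called higher and 1 lower, and -0.62 over 15 matrix genes, with 1 called higher and 2 lower. Pecam1 was the only endothelial gene tested and was not called. The 12 genes left out by the filter were Cnn1, Lmod1, Myl9, Col5a1, Col6a3, Col14a1, Lum, Pdgfra, Mgp, Postn, Cdh5 and Kdr. A gene with few reads in one genotype passes this filter only if it is high in the other, so these counts and medians describe the genes that passed. A fit over all 29946 genes with a read included all 40 and gave a median of -0.98 beside -0.125 for all genes. The median was also -0.98 with the 4 genes that had no read in p16cis/cis mice set at their bound. It called 2 of them higher and 6 lower, against 3.01% and 3.4% of all genes in these directions. The 4 genes it called that the filter had left out were Cdh5, Pdgfra, Col6a3 and Kdr (limma adjusted p = 0.0083, 0.0217, 0.0229 and 0.0259), all lower.

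**Figure D2:**
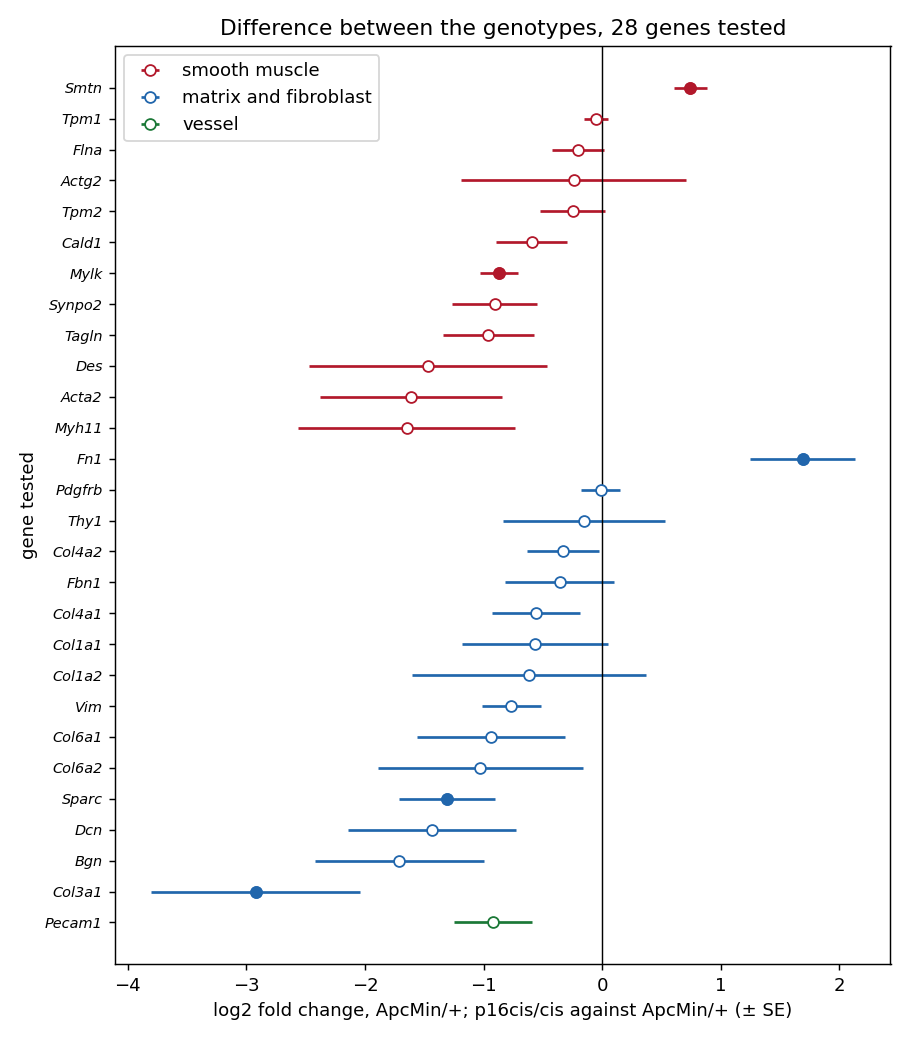
Log2 fold change (p16cis/cis against ApcMin/+ mice, on the log2(normalized count + 1) scale) with its SE for the 28 genes tested, coloured by kind, filled where the adjusted p was under 0.05. Smtn at 0.74 and Fn1 at 1.69 lie to the right of 0, the others to the left, Col3a1 the farthest at -2.92.

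The median SD between mice of one genotype, on the log2 scale, was 1.11 over the matrix genes tested and 0.48 over the smooth muscle genes tested. The genes within a kind were unlike. Among smooth muscle genes the SE of the log2 fold change ran from 0.10 for Tpm1 to 0.77 for Acta2, 0.92 for Myh11, 0.95 for Actg2 and 1.00 for Des. Among matrix genes it ran from 0.16 for Pdgfrb to 0.99 for Col1a2. The mice that stood high were not the same for each kind. ApcMin/+ mouse 3 held the highest value of 9 of the 15 smooth muscle genes, ApcMin/+ mouse 1 that of 9 of the 22 matrix genes, and ApcMin/+ mouse 5 that of all 3 endothelial genes. ApcMin/+ mouse 4 stood with the other genotype: it was at or under the highest p16cis/cis value for 31 of the 40 genes, against 10 to 19 for each other ApcMin/+ mouse. Of the 40 genes, 7 were at 0 in ApcMin/+ mouse 4, 0 or 1 in the other ApcMin/+ mice, and 6 to 12 in the p16cis/cis mice, which were less deeply sequenced. Without ApcMin/+ mouse 4, 10 of the genes were called lower in p16cis/cis mice in place of 3, while the genes called among all tested went from 2434 to 3488. Without ApcMin/+ mouse 1, 3 or 5 or p16cis/cis mouse 1 or 4, 1 of them was called lower. The genes called among all tested also fell in these fits, to 1878, 1287, 2042, 2207 and 1183.

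**Figure D3:**
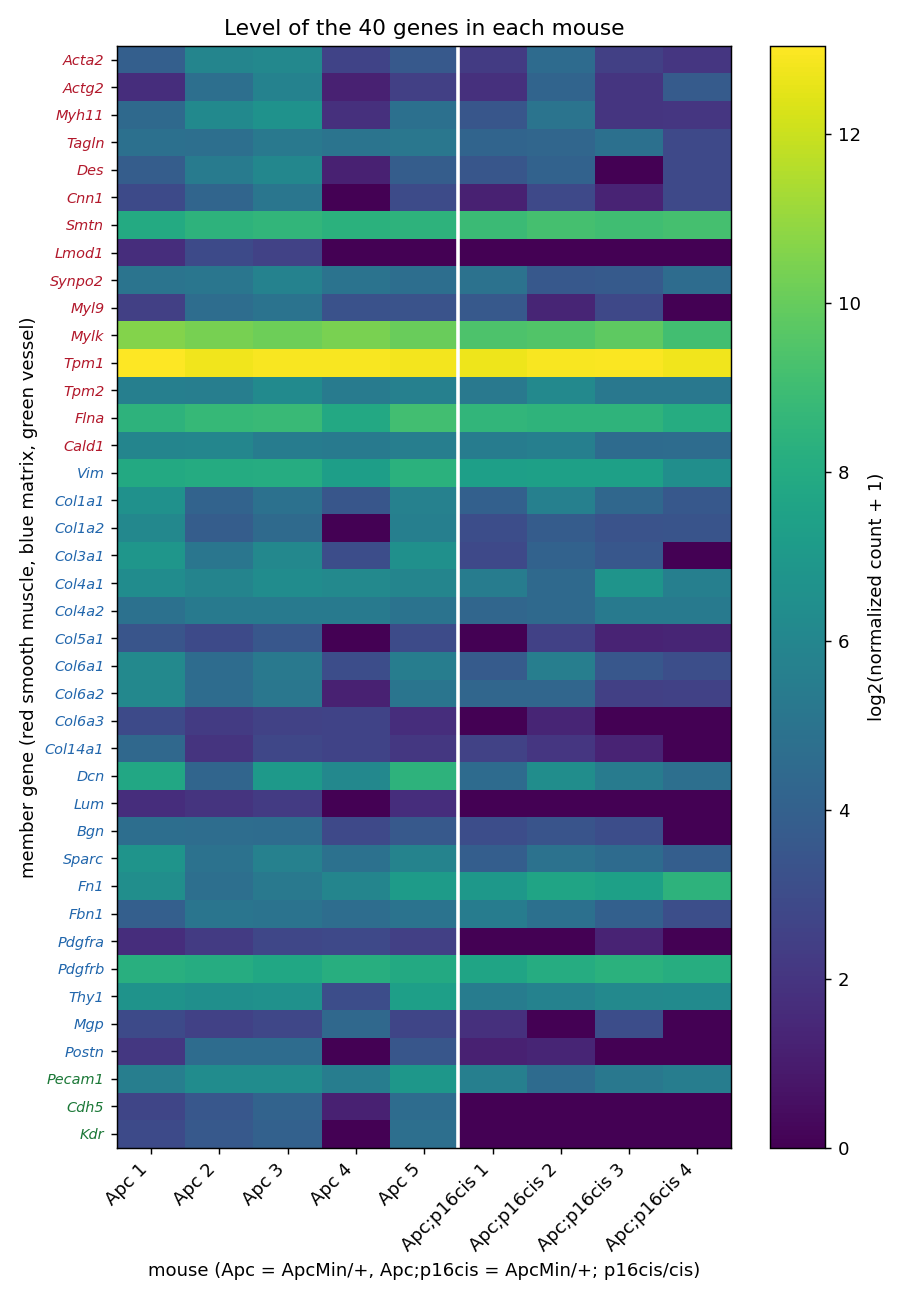
Level of the 40 genes (rows, ordered by kind) in the 9 mice (columns) as log2(normalized count + 1). The column of ApcMin/+ mouse 4 is darker than those of the other ApcMin/+ mice, with 7 genes at 0, and 4 genes are at 0 in all 4 p16cis/cis mice.

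Of the listed smooth muscle genes, Smtn, which encodes smoothelin, an actin-binding protein of contractile smooth muscle, was higher in p16cis/cis mice. It was at 251, 348, 379, 319 and 346 normalized counts in ApcMin/+ mice 1 to 5 and at 472, 592, 530 and 594 in p16cis/cis mice 1 to 4. The genotypes did not overlap, as was the case for 16.2% of all genes tested and for 2 of the 28 tested here, Smtn and Mylk. This gave a log2 fold change of 0.74 (SE 0.14, limma adjusted p = 0.0070), a 1.67-fold rise. Smtn did not follow Myh11 or Cnn1 in level. It was at 97.2 per kb against 3.95 for Myh11 and 3.29 for Cnn1. In ApcMin/+ mouse 4 Smtn was at 319 normalized counts, Myh11 at 2.54 and Cnn1 at 0. Mylk, another contractile gene, was near Smtn at 92.0 per kb, and it was at 1379 in that mouse. Tpm1 was at 1157 per kb. Which cells the Smtn reads came from was not tested. The gene lies at chr11:3517523-3540612 (GRCm38, minus strand), and 16.3% of its exon bases are shared with the opposite-strand transcript Gm11946. Whether reads were counted by strand is not given in the sources used here.

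Mylk encodes myosin light chain kinase, which sets off contraction and also has a long form in epithelium and endothelium. It was at 1571, 1310, 1159, 1379 and 1052 normalized counts in ApcMin/+ mice and at 668, 735, 912 and 539 in p16cis/cis mice. Each ApcMin/+ mouse was above each p16cis/cis mouse, and the log2 fold change was -0.87 (SE 0.16, limma adjusted p = 0.0061). The gene (chr16:34745210-35002420, GRCm38, plus strand) was called under 19 of 23 alternatives and Smtn under 20 of 23, and Mylk lost it in females alone (limma adjusted p = 0.0712). Both lost the call with the mitochondrial share as a covariate, where no gene was called at all and 798 had an unadjusted p under 0.05. Smtn and Mylk moved in opposite directions.

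The genes that define smooth muscle were much lower in reads and were not called. Myh11, the smooth muscle myosin heavy chain, was at 21.2, 72.3, 98.5, 2.54 and 27.2 normalized counts in ApcMin/+ mice and at 10.1, 31.9, 3.01 and 3.13 in p16cis/cis mice. The genotypes overlapped, since ApcMin/+ mouse 4 was the lowest of all 9 and p16cis/cis mouse 2 stood above ApcMin/+ mice 1, 4 and 5. Its log2 fold change of -1.65 (SE 0.92, limma adjusted p = 0.234) was the most negative of the 12 smooth muscle genes tested.

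Acta2, the smooth muscle alpha-actin also made by myofibroblasts, was at 14.5, 60.9, 66.3, 5.08 and 11.4 normalized counts in ApcMin/+ mice and at 3.79, 22.3, 4.51 and 3.13 in p16cis/cis mice. As with Myh11, ApcMin/+ mice 2 and 3 were high and p16cis/cis mouse 2 was the high one of its genotype. The difference on the log2 scale was -1.61 (SE 0.77, limma adjusted p = 0.163). Without ApcMin/+ mouse 4, Acta2 (-2.07, limma adjusted p = 0.046) and Myh11 (-2.39, limma adjusted p = 0.0257) were both called. Of the 50-base windows of the Acta2 transcript, 0.326% also occur in another actin gene.

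Actg2, the gamma-actin of enteric smooth muscle, was at 2.23, 26.6, 54.6, 1.27 and 4.54 normalized counts in ApcMin/+ mice and at 2.53, 17.5, 3.01 and 12.5 in p16cis/cis mice. The genotypes overlapped, and p16cis/cis mice 2 and 4 stood above 3 of the ApcMin/+ mice, with a log2 fold change of -0.24 (SE 0.95, limma adjusted p = 0.89). Its direction was not stable, with -1.07 by edgeR and -1.02 by DESeq2 on the recovered reads, 1.24 in females alone, and 0.16, 0.41, 0.14 and 0.08 without ApcMin/+ mouse 2 or 3 or p16cis/cis mouse 1 or 3. Des, the muscle intermediate filament desmin, was at 13.4, 41.8, 65.4, 1.27 and 13.6 in ApcMin/+ mice and at 10.1, 15.95, 0 and 6.27 in p16cis/cis mice. Here too ApcMin/+ mice 2 and 3 were the high ones, and the log2 fold change was -1.47 (SE 1.00, limma adjusted p = 0.336).

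Tagln, an actin-binding protein of early smooth muscle named transgelin, was at 26.8, 26.6, 38.0, 31.8 and 35.2 normalized counts in ApcMin/+ mice and at 17.7, 19.1, 27.0 and 6.27 in p16cis/cis mice. It did not show the high values of ApcMin/+ mice 2 and 3 seen for Acta2, and p16cis/cis mouse 3 was just above ApcMin/+ mice 1 and 2. The log2 fold change was -0.96 (SE 0.38, limma adjusted p = 0.103). The antisense gene Gm48529 covers 62.4% of its exon bases, so these reads cannot be given to Tagln alone.

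The remaining smooth muscle genes tested were not called. Tpm1 was at 8466, 6979, 7694, 7834 and 7126 normalized counts in ApcMin/+ mice and at 6719, 7714, 7952 and 7027 in p16cis/cis mice, so that the log2 fold change was -0.05 (SE 0.10, limma adjusted p = 0.768). This is the most precise estimate of the set, from the gene with the most reads. Tpm2, a second tropomyosin (-0.25), Flna, the actin cross-linker filamin A (-0.21), Cald1, the actin regulator caldesmon (-0.59), and Synpo2, an actin-bundling protein of the Z-disc (-0.90), had log2 fold changes below 0. Their limma adjusted p-values ran from 0.101 for Synpo2 to 0.566 for Tpm2.

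Of the 3 smooth muscle genes not tested, the regulatory light chain Myl9 had 76 reads over the ApcMin/+ mice and 14 over the p16cis/cis mice, the thin-filament protein calponin, Cnn1, had 66 and 10, and Lmod1, a nucleator of actin filaments, had 14 and 0. Against 3 reads over the p16cis/cis group, the mean of Lmod1 was at least 2.48-fold higher in ApcMin/+ mice. ApcMin/+ mice 4 and 5 had no Lmod1 read either, and the fit without a filter did not call it (limma adjusted p = 0.163). All 3 genes had the lower mean in p16cis/cis mice.

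Promoter windows of RefSeq (GRCm38.p6), which span the transcription start, were given for 27 of the 40 genes, and the windows were searched for the CArG box (CC, 6 bases of A or T, GG, which reads the same on both strands). The box was in 1.63% of all 32851 windows and in 1 of the 13 windows of smooth muscle genes. By gene, this was 1.81% of all genes and 1 of the 12 smooth muscle genes with an entry, Myl9. None of the 14 matrix genes with an entry held it. Boxes that differ from this spelling, and boxes outside these windows, were not counted. The 90 bases around the Myl9 box, at chr2:156775263-156775352 on the plus strand, are shown because it was the one window of those searched that held the motif, which is in capitals and begins at position -161 from the start.
Myl9: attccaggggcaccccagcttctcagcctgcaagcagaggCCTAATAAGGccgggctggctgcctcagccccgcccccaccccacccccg

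Among the fibrillar collagens, Col3a1, the type III collagen of loose connective tissue, fell. It was at 116, 33.3, 67.3, 7.63 and 91.9 normalized counts in ApcMin/+ mice and at 6.31, 15.95, 10.5 and 0 in p16cis/cis mice. ApcMin/+ mouse 4 was inside the range of the p16cis/cis mice and the other 4 ApcMin/+ mice were above it. Its log2 fold change was -2.92 (SE 0.88, limma adjusted p = 0.0414), from 295 reads over the ApcMin/+ mice and 22 over the p16cis/cis mice. The call was lost without ApcMin/+ mouse 1, 2, 3 or 5 (limma adjusted p = 0.0886, 0.0685, 0.0924 and 0.0845) and without p16cis/cis mouse 1 or 4 (0.0685 and 0.110), with a pseudocount of 0.1 (0.0706) and in females alone (0.0506). The gene lies at chr1:45311538-45349706 (GRCm38, plus strand). The 100 bases before its start, at chr1:45311438-45311537, are shown as the upstream stretch of the gene with the largest negative change among those tested, and they hold neither TATAAA nor GGGCGG on either strand, which occur in 5.56% and 24.7% of all such stretches.
Col3a1: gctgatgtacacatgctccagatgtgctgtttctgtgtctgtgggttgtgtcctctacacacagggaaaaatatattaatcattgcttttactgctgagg

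Col1a1, a chain of type I collagen, was at 97.1, 17.1, 28.3, 10.2 and 52.2 normalized counts in ApcMin/+ mice and at 15.2, 51.0, 19.5 and 10.97 in p16cis/cis mice. The highest values were those of the 2 ApcMin/+ females and of p16cis/cis mouse 2, and the genotypes overlapped. This gave a log2 fold change of -0.56 (SE 0.62, limma adjusted p = 0.563). For Col1a2, the partner chain, it was -0.62 (SE 0.99, limma adjusted p = 0.701), and it was -1.65 by edgeR on the recovered reads. Without ApcMin/+ mouse 4, which had no Col1a2 read, the log2 fold change was -1.62 (limma adjusted p = 0.0287).

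Col4a1, a chain of the type IV collagen of basement membranes, was at 80.3, 58.0, 81.0, 68.6 and 60.2 normalized counts in ApcMin/+ mice and at 42.9, 20.7, 107 and 48.6 in p16cis/cis mice. Mice 1, 2 and 4 of the p16cis/cis mice were under all ApcMin/+ mice, and mouse 3 was above all of them. The difference on the log2 scale was -0.56 (SE 0.37, limma adjusted p = 0.326), and that of its head-to-head neighbour Col4a2 was -0.33 (SE 0.30, limma adjusted p = 0.483). Of the type VI collagens, Col6a1 (-0.94, limma adjusted p = 0.326) and Col6a2 (-1.03, limma adjusted p = 0.443) were not called. Col6a3, not tested, had 21 reads over the ApcMin/+ mice and 1 over the p16cis/cis mice, a ratio of 12.3 after size factors (95% exact interval 1.98 to 509.5). Col5a1, which starts type I fibrils, had 33 and 5 reads, and Col14a1, a fibril-associated collagen, had 34 and 7.

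Of the small proteoglycans that bind collagen, Dcn, decorin, was at 223, 18.1, 133, 67.4 and 345 normalized counts in ApcMin/+ mice and at 22.7, 82.9, 42.1 and 26.6 in p16cis/cis mice. ApcMin/+ mice 1, 3 and 5 stood above all p16cis/cis mice, and ApcMin/+ mouse 2 below them. The log2 fold change was -1.44 (SE 0.71, limma adjusted p = 0.179). It was -2.07 with sex as a covariate (limma adjusted p = 0.0441), -2.59 in the 5 females alone (limma adjusted p = 0.0183) and -2.06 without ApcMin/+ mouse 2 (limma adjusted p = 0.0315). Biglycan, Bgn, had a log2 fold change of -1.71 (SE 0.71, limma adjusted p = 0.116). Lumican, Lum, had 11 reads over the ApcMin/+ mice and 0 over the p16cis/cis mice, and its mean was at least 2.03-fold higher in ApcMin/+ mice. ApcMin/+ mouse 4 had no Lum read either, and the fit without a filter did not call it (limma adjusted p = 0.0608).

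Sparc, a secreted collagen-binding glycoprotein, fell. It was at 107, 29.5, 52.7, 27.96 and 55.6 normalized counts in ApcMin/+ mice and at 13.9, 28.7, 22.5 and 14.1 in p16cis/cis mice. The genotypes met only at ApcMin/+ mouse 4, which was under p16cis/cis mouse 2. Its log2 fold change was -1.31 (SE 0.41, limma adjusted p = 0.0462). The gene, at chr11:55394500-55423183 (GRCm38, minus strand), was called under 10 of 23 alternatives. Its call was lost without ApcMin/+ mouse 1, 3 or 5 (limma adjusted p = 0.0894, 0.0982 and 0.0842) and without p16cis/cis mouse 1, 2, 3 or 4 (limma adjusted p = 0.101, 0.0575, 0.0617 and 0.124).

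Fn1, fibronectin, a cell-adhesive glycoprotein that epithelial cells as well as fibroblasts can make, moved the other way and had the largest positive change of the genes tested. It was at 84.8, 26.6, 37.1, 61.0 and 143 normalized counts in ApcMin/+ mice and at 122, 195, 170 and 349 in p16cis/cis mice. ApcMin/+ mouse 5 reached into the p16cis/cis range above its mouse 1, and the other ApcMin/+ mice were below it. This gave a log2 fold change of 1.69 (SE 0.44, limma adjusted p = 0.0245), a 3.23-fold rise of a gene at chr1:71585520-71653200 (GRCm38, minus strand). The call was lost without ApcMin/+ mouse 2 or 3 (limma adjusted p = 0.0516 and 0.061) and without p16cis/cis mouse 2 or 4 (limma adjusted p = 0.0633 and 0.0835). In females alone it was 1.03 (limma adjusted p = 0.113). With the mitochondrial share as a covariate the log2 fold change was -0.07 (limma adjusted p = 0.991).

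**Figure D4:**
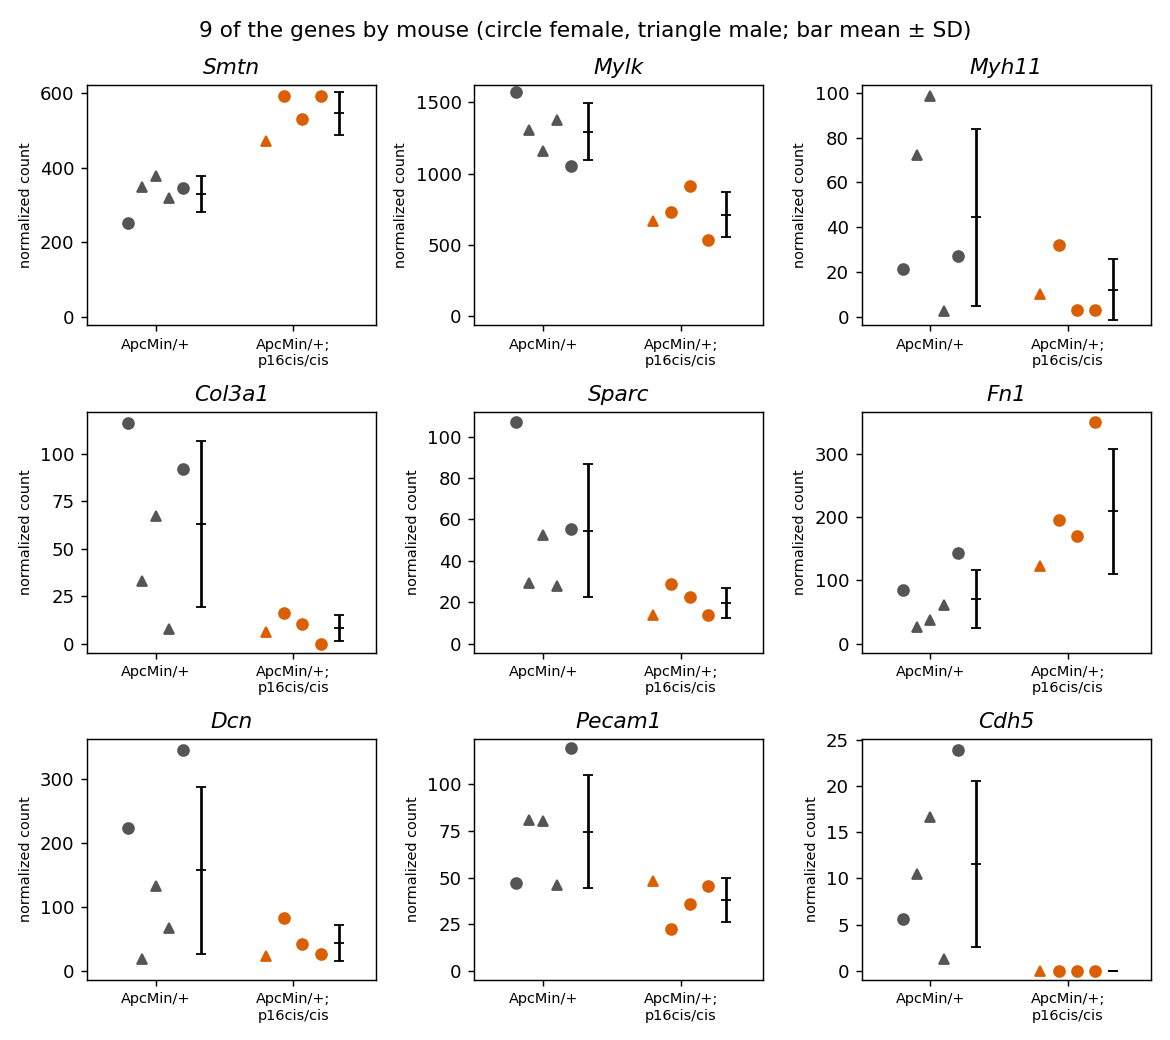
Normalized counts of 9 of the genes by mouse, ApcMin/+ on the left and p16cis/cis on the right of each panel, circles for females and triangles for males, with the mean and SD as a bar beside the points. The genotypes are apart for Smtn, Mylk and Cdh5, the last at 0 in all p16cis/cis mice. Fn1 is higher in p16cis/cis mice, with its highest value at 349. Myh11, Col3a1, Sparc, Dcn and Pecam1 have the lower mean in p16cis/cis mice, and the genotypes overlap for each.

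Vim, the intermediate filament vimentin of mesenchymal cells and leukocytes, was at 244, 262, 268, 159 and 320 normalized counts in ApcMin/+ mice and at 167, 172, 171 and 86.2 in p16cis/cis mice. ApcMin/+ mouse 4 was under 3 of the p16cis/cis mice, and the other ApcMin/+ mice were above all of them. The difference on the log2 scale was -0.76 (SE 0.25), with a limma adjusted p of 0.0531, just above the threshold. It passed by DESeq2 on the recovered reads (adjusted p = 0.0173) and without ApcMin/+ mouse 4 (limma adjusted p = 0.012).

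The receptors for platelet-derived growth factor mark fibroblasts (Pdgfra) and pericytes and fibroblasts (Pdgfrb). Pdgfrb was at 297, 274, 217, 294 and 245 normalized counts in ApcMin/+ mice and at 196, 266, 319 and 279 in p16cis/cis mice. The log2 fold change was -0.01 (SE 0.16, limma adjusted p = 0.966), and the genotypes covered the same range. Pdgfra was at 2.23, 3.80, 5.85, 6.36 and 4.54 in ApcMin/+ mice and at 0, 0, 1.503 and 0 in p16cis/cis mice. This is 21 reads against 1, a ratio of 12.3 (95% exact interval 1.98 to 509.5), with the genotypes apart, but no mouse held more than 6 reads.

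Thy1, a surface glycoprotein of fibroblasts and T cells, had a log2 fold change of -0.15 (SE 0.68, limma adjusted p = 0.904). Without ApcMin/+ mouse 4, at 7.63 against 88.4 to 166 in the other ApcMin/+ mice, it was -0.89 (limma adjusted p = 0.0251). Fbn1, fibrillin, the core of microfibrils, was not called (-0.36, SE 0.46, limma adjusted p = 0.624), and 20.1% of its exon bases are shared with the opposite-strand gene Gm9913. Postn, the matricellular protein periostin, had 61 reads over the ApcMin/+ mice and 2 over the p16cis/cis mice, a ratio of 17.9 (95% exact interval 4.75 to 151). This interval does not hold the spread between mice. Postn ran from 0 in ApcMin/+ mouse 4 to 23.8 in mouse 2, and the fit without a filter did not call it (limma adjusted p = 0.114). Mgp, an inhibitor of calcification, had 38 reads over the ApcMin/+ mice and 7 over the p16cis/cis mice.

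Of the endothelial genes Pecam1 alone passed the filter, and all 3 had the lower mean in p16cis/cis mice. Pecam1, the junction protein CD31, which leukocytes and platelets also carry, was at 46.9, 80.8, 80, 45.8 and 119 normalized counts in ApcMin/+ mice and at 48.0, 22.3, 36.1 and 45.4 in p16cis/cis mice. ApcMin/+ mice 2, 3 and 5 were above all p16cis/cis mice, and mice 1 and 4 were level with the highest of them. Its log2 fold change was -0.92 (SE 0.33, limma adjusted p = 0.0766), and Pecam1 was called by DESeq2 on the recovered reads (adjusted p = 0.0373) and without ApcMin/+ mouse 4 (limma adjusted p = 0.0319).

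Cdh5, VE-cadherin of endothelial junctions, was at 5.58, 10.5, 16.6, 1.27 and 23.8 normalized counts in ApcMin/+ mice and at 0 in all 4 p16cis/cis mice. It had 55 reads over the ApcMin/+ mice, so it was at least 10.4-fold higher there, and the lowest ApcMin/+ value, that of mouse 4, was a single read. Kdr, the main receptor for vascular endothelial growth factor A, was at 6.70, 11.4, 15.6, 0 and 26.1 in ApcMin/+ mice and at 0 in all p16cis/cis mice. With 57 reads over the ApcMin/+ mice it was at least 10.8-fold higher there. For both genes the order of the ApcMin/+ mice was the same, mouse 5 first and then mice 3, 2, 1 and 4. Over all 40 genes, the genotypes did not overlap for 5: Smtn, Mylk, Col6a3, Pdgfra and Cdh5. Of these, Smtn and Mylk were tested, and 16.2% of all genes tested did not overlap either. Col6a3, Pdgfra and Cdh5 had failed the filter, with 0 or 1 read over the p16cis/cis mice. The share over all genes that failed it was not counted.

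The 3 kinds of gene were compared across mice through Myh11, Col1a1 and Pecam1 on the log2 scale. Myh11 and Col1a1 had r = 0.51 and rho = 0.53 over 9 mice (exact permutation p = 0.161 and 0.148, adjusted over the 3 pairs 0.354 and 0.291), and r was 0.33 without the 2 mice farthest from the median. Myh11 and Pecam1 had r = 0.44 and rho = 0.48 (exact permutation p = 0.236 and 0.194, adjusted 0.354 and 0.291), with r = 0.36 without those 2. Col1a1 and Pecam1 had r = 0.04 and rho = 0.18 (exact permutation p = 0.923 and 0.644, adjusted 0.923 and 0.644), and r was -0.37 without the 2 farthest mice. None passed the test, and each genotype holds too few mice for a value of its own.

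Related genes outside the set were called in both directions. Of 24 other smooth muscle genes 17 were tested, 2 rose and none fell. The 2 were Dmpk, a protein kinase of muscle (0.98, SE 0.17, limma adjusted p = 0.0057), and Ppp1r14a, an inhibitor of myosin phosphatase (0.93, SE 0.29, limma adjusted p = 0.0442). The median was 0.13 over the 17 and -0.0079 over all 24 in the fit without a filter. Of 38 other matrix genes 21 were tested, with a median of -0.16 (-0.79 over all 38 without a filter), and 2 rose and 5 fell. Hspg2, the basement membrane proteoglycan perlecan, rose (0.80, SE 0.13, limma adjusted p = 0.0046), and Thbs1, the matricellular thrombospondin, fell (-0.85, SE 0.22, limma adjusted p = 0.0227).

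Of 20 other endothelial genes 8 were tested, with a median of 0.11 (-0.72 over all 20 without a filter, or -0.90 with 1 gene of no read in p16cis/cis mice at its bound and 2 too low for one left out) and 1 called in each direction: Ecscr, a surface protein of endothelial cells, rose (1.00, SE 0.18, limma adjusted p = 0.0054), and Eng, the TGF-beta co-receptor endoglin, fell (-2.02, SE 0.63, limma adjusted p = 0.0468). Of 20 growth factors and regulators 18 were tested, 2 rose and 2 fell. Mrtfa, a coactivator of serum response factor, rose (0.39, SE 0.09, limma adjusted p = 0.0154), and Tgfbr1, a receptor of TGF-beta, fell (-0.50, SE 0.12, limma adjusted p = 0.0162). The median of these 18 was -0.08.

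Markers of other cells that a mucosal sample can hold were measured beside these genes. All 15 epithelial markers were tested and 1 was called, the chloride exchanger Slc26a3 of surface colonocytes (-1.23, SE 0.24, limma adjusted p = 0.0085), with the carbonic anhydrase Car1 next (-0.81, SE 0.29, limma adjusted p = 0.075). The summed epithelial markers were 490787 to 837194 normalized counts in ApcMin/+ mice and 495976 to 588946 in p16cis/cis mice. Of 6 pericyte markers 2 were tested and Cspg4 fell (-1.71, SE 0.40, limma adjusted p = 0.0162) and Kcnj8 was at -0.55 (SE 0.60, limma adjusted p = 0.559), while Higd1b was at 0 in all mice and Rgs5 at 0 in 5 of them. The pericyte sum was 73.8 to 276 in ApcMin/+ mice and 37.9 to 63.1 in p16cis/cis mice. Much of it was Cspg4 alone, at 48.0 to 211 and 16.4 to 35.1, with the 211 in ApcMin/+ mouse 4. Pdgfrb, named above for pericytes, had a log2 fold change of -0.01. The sum therefore does not stand for pericytes as a whole.

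Of 5 lymphatic endothelial markers 4 were tested, and Lyve1 (-0.88, SE 0.23, limma adjusted p = 0.0247) and Mmrn1 (-3.33, SE 1.01, limma adjusted p = 0.0423) fell. Flt4 (-3.10, SE 1.12, limma adjusted p = 0.0766) and Prox1 (0.12, SE 0.28, limma adjusted p = 0.81) were not called. The sum was 153 to 510 in ApcMin/+ mice and 95.6 to 152 in p16cis/cis mice. As Prox1 did not fall, it does not stand for lymphatic endothelium as a whole. Mmrn1 was at 56.9, 107, 135, 5.08 and 200.9 normalized counts in ApcMin/+ mice, again lowest in mouse 4 and highest in mouse 5, and at 0 to 14.4 in p16cis/cis mice. Of 10 leukocyte markers 9 were tested, and Lyz2 of myeloid cells (-1.56, SE 0.30, limma adjusted p = 0.0074) and Jchain of plasma cells (-2.65, SE 0.64, limma adjusted p = 0.0175) fell. The other 7 were not called, among them Cd3e of T cells (0.18, limma adjusted p = 0.852) and Itgam of myeloid cells (-0.02, limma adjusted p = 0.968). Of the 9 log2 fold changes, 8 were negative and 1 positive. The sum of all 10 markers was 149 in ApcMin/+ mouse 4, up to 1569 in the other ApcMin/+ mice, and 264 to 425 in p16cis/cis mice.

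Of 4 mesothelial markers 2 were tested and none was called, Upk3b being at -1.67 (SE 0.89, limma adjusted p = 0.215) and Msln at -1.13 (SE 0.74, limma adjusted p = 0.313). Upk3b was at 91.5, 2.85, 28.3, 6.36 and 55.6 normalized counts in ApcMin/+ mice and at 3.01 to 19.1 in p16cis/cis mice, high in ApcMin/+ mice 1, 3 and 5 as Dcn was. Of 10 markers of crypt fibroblasts 4 were tested and 1, the Wnt ligand Wnt5a, fell (-2.38, SE 0.43, limma adjusted p = 0.0057), and F3, tissue factor, was at -0.56 (SE 0.26, limma adjusted p = 0.16). The other 2 were not called and were above 0, Cd81 at 0.23 (SE 0.13, limma adjusted p = 0.246) and Wnt2b at 0.04 (SE 0.41, limma adjusted p = 0.956). Of 5 adipocyte markers 1 was tested and fell, the lipid droplet protein Cidec (-1.69, SE 0.38, limma adjusted p = 0.0132), which enterocytes may also express. None was called of the 3 tested markers of interstitial cells of Cajal (3 listed), the 3 of enteric neurons (8 listed) and the 2 of skeletal muscle (6 listed). The log2 fold changes of those with the smallest p were -0.27 for Kit and 0.17 for Ano1 of interstitial cells, 0.79 for Uchl1 and 0.55 for Snap25 of neurons, and 0.39 for Acta1 and -0.06 for Mylpf of skeletal muscle. Over all mice, Kit was at 1128 to 1849 normalized counts and Ano1 at 2556 to 3527. Etv1, also listed for interstitial cells, was at 7.63 to 39.0, and Myh11 at 2.54 to 98.5. Acta1 was at 107 to 327 and Mylpf at 10.5 to 51.0, while Ckm was at 0 to 1.95 and Myh4 at 0. Which cells the Kit, Ano1 and Acta1 reads came from was not tested. Their changes cannot be given to interstitial cells or skeletal muscle alone. The part of the cells named by these marker lists in the values of the 40 genes was not tested.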

How the data were processed

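RNA from colonic mucosa was sequenced by the authors on the BGISEQ-500 platform, aligned with BOWTIE2, quantified with RSEM and compared with DESeq2, according to the methods. Genome build, annotation and versions are not given in the sources used here. The deposited signal values are gene counts scaled by a size factor of each mouse. After division by the value of 1 read, 100% of the positive values were whole within 0.01 reads. Identifiers were matched without version to GENCODE M21 (GRCm38), which gave 54079 of 54146 genes a position and exon length.

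The test was limma 3.58.1 (R 4.3.3, trend) on log2(value + 1), for the 14410 genes with at least 10 in at least 4 mice, with Benjamini-Hochberg adjustment and a threshold of 0.05. It replaced a count test because the deposited values are normalized, and edgeR 4.0.16 and DESeq2 1.42.0 took the recovered reads as alternative tests, calling 2469 and 3230 genes against 2434. The functions were tested on simulated data. Values per mouse were named for the genes that define each kind, the genes called, and those with the largest change of each kind in either direction; of other lists, the 2 with the smallest p. The members and lists were chosen with earlier results of these data known. Separate mice are replicates, and p-values reflect their spread. One marker list is not reported here.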

Additional observations from a re-analysis of the deposited data

Results flagged for a closer look

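A value standing apart from the rest of its genotype, by Dixon's test on normalized counts, was found in 10 of 76 groups checked, where chance gives about 1 in 20. In 2 of these only 1 mouse had a read, so that the test had to pass, which leaves 8 of 74 groups against 3.7 by chance. In p16cis/cis mouse 2 this held for Acta2 at 22.3 (others 3.13 to 4.51), Tpm2 at 70.2 (36.0 to 37.9), Col6a1 at 46.3 (7.83 to 12.6) and Col6a3 at 1.595, a single read (others 0). In p16cis/cis mouse 4 Vim was low at 86.2 (others 167 to 172), and in mouse 3 Pdgfra was at 1.503, again 1 read (others 0). In ApcMin/+ mouse 3 Synpo2 was at 53.7 (25.0 to 33.3) and Tpm2 at 75.1 (41.9 to 49.9). Col14a1 was at 20.1 in ApcMin/+ mouse 1 (2.85 to 5.85), and Mgp at 20.3 in ApcMin/+ mouse 4 (4.75 to 6.70), a mouse that was low for most of the other genes.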

How the results depend on the processing

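Against 2 genes called higher and 3 lower (2 smooth muscle, 3 matrix, 0 endothelial), DESeq2 called 5 lower, 1 of them endothelial. The fit with no filter called 6 lower, 2 of them endothelial, with an endothelial median of -3.08. Females alone gave 1 higher, and 1 smooth muscle gene called. A fold change over 2 left 1 higher and 0 smooth muscle genes, and Bonferroni adjustment left 0 higher, 0 lower, 0 smooth muscle and 0 matrix genes. With the mitochondrial share as a covariate 0 were called higher, 0 lower, 0 smooth muscle and 0 matrix, the endothelial median was -0.083 and Fn1 reversed to -0.071. Mitochondrial share and genotype did not overlap. The smooth muscle median was -0.25 where at least 10 was required in every mouse. Leaving out 1 mouse at a time gave 1 to 2 higher, 1 to 10 lower, 2 to 4 smooth muscle, 0 to 7 matrix and 0 to 1 endothelial genes called. The causes were not tested. With the replicate block, 2 genes were called higher and 4 lower, and Sparc lost the call (limma adjusted p = 0.0935). Mice of one number share only that number (correlations of deviations -0.18, 0.07, 0.05 and 0.14), and ApcMin/+ mouse 5 has no partner. All genes called ranged from 0 (mitochondrial covariate) and 27 (Bonferroni) to 3488 (without ApcMin/+ mouse 4), with 501 for a fold over 2, 898 in females alone and 1437 with sex as a covariate; leaving out ApcMin/+ mouse 2 or 3 or p16cis/cis mouse 2 or 4 gave 1353, 1287, 1257 and 1183. The 3 correlations passed under no alternative run. For the 12 genes left out by the filter, the 4 calls in the fit without one rest on at most 57 reads a genotype. Over the alternatives run, the adjusted p ranged up to 1 (with Bonferroni) for each gene, from a lowest of 0.012 for Vim (past the threshold in 4), 0.0319 for Pecam1 (2), 0.046 for Acta2 (1), 0.0257 for Myh11 (1), 0.0183 for Dcn (3), 0.025 for Col1a2 (2), 0.0251 for Thy1 (1), 0.0006373 for Col3a1 (12), 0.0115 for Sparc (10) and 0.00298 for Fn1 (16).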
